A study of Homo sapiens with 8 samples.

Results

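Open chromatin around 40 genes of ATP-dependent chromatin remodellers was described in H1975 and HCC44 cells treated with ACBI1 or its solvent. The 40 genes were taken by name from 20037 protein-coding genes: 29 encode subunits of the SWI/SNF (BAF) complexes, and 11 encode ATPases of the ISWI, CHD and INO80 types. For each gene, the peaks of every deposited list were counted within 1 kb of either gene end (boundary peaks). Peaks anywhere else in the gene body or in the 50 kb on either side were counted separately (peaks elsewhere).

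Accessibility was read by ATAC-seq, which tags exposed DNA with a hyperactive transposase, and the study has 8 samples. The 2 lines, H1975 and HCC44, come from human lung cancers. The cells, both labelled with genotype WT, were each kept for 96 h with DMSO, the solvent control, or with ACBI1, at a labelled dose of 1 mM that is given here only as labelled. Each of the 4 groups had 2 replicates, which the labels do not describe as separate cultures, so the spread between them may be technical. ACBI1 is a degrader that brings SMARCA2, SMARCA4 and PBRM1 to an E3 ubiquitin ligase. Nothing in a peak list measures protein, so the lists do not check whether these 3 targets were degraded, and each line stands for 1 tumour.

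Chromatin remodellers use ATP to slide, evict or exchange nucleosomes, and each complex is built around an ATPase of the SNF2 family. In SWI/SNF complexes the ATPase is SMARCA4 or SMARCA2, joined by shared core subunits and by subunits that define canonical BAF (ARID1A or ARID1B, with DPF proteins), PBAF (PBRM1, ARID2, BRD7, PHF10) and non-canonical BAF (BRD9, BICRA or BICRAL). ISWI enzymes space nucleosomes, CHD enzymes read histone tails, and the INO80 group exchanges or moves nucleosomes that carry H2A.Z. SWI/SNF complexes are best known for keeping enhancers open, and their genes are often mutated in lung cancer.

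The deposited lists held 41027 to 50347 peaks in the 4 DMSO samples and 22133 to 27682 in the 4 ACBI1 samples, with the shortest list in H1975 ACBI1 replicate 2. Read numbers are not in the lists, so depth is unknown, and a missing peak can be open chromatin below the caller's threshold. All 6 epithelial marker genes had a boundary peak in 7 samples, and 5 of them did in HCC44 ACBI1 replicate 1, where CDH1 had none. Mesenchymal markers with a boundary peak numbered 3 or 4 in each sample and endothelial ones 0 or 1. The marker peaks were thus not limited to epithelial genes. Of the blood markers PTPRC and LYZ had none in any sample, SPI1 had one in all 8, and CD3E had one in 3 DMSO samples. Every count below carries the difference in list length with it, and whether that difference reflects depth or accessibility was not tested.

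Most remodeller genes had an open end in every sample. A boundary peak was present in all 8 samples for 34 of the 40 genes, 24 of SWI/SNF and 10 other ATPases, beside 52.7% of all protein-coding genes. In H1975, 35 members had a boundary peak in both DMSO samples (59.4% of all genes), and 35 of 35 had one in both ACBI1 samples, beside 95.2% of all genes that had one with DMSO. In HCC44, 36 members had one in both DMSO samples (60.9% of all genes) and 34 of these had one in both ACBI1 samples, beside 91.9%. Among peaks of at least 5-fold enrichment alone, 11 HCC44 members had a boundary peak with DMSO and 5 kept it, beside 64.9% of all genes. The exceptions over all HCC44 peaks were ARID1B, which encodes the large DNA-binding subunit of canonical BAF, and BCL7A, an accessory subunit of the ATPase module. ARID1B had 1 boundary peak in both HCC44 DMSO samples and in ACBI1 replicate 1, and none in ACBI1 replicate 2. In H1975 the same gene had one in ACBI1 replicate 1 only. In each list without one, a peak began just outside the ARID1B window, at positions 156777154 to 156777216. These absences are therefore ones of position. BCL7A had 2 and 1 boundary peaks in the HCC44 DMSO samples and 0 and 1 with ACBI1, and in H1975 it lacked one in DMSO replicate 1 only. CHD3, a NuRD ATPase, had 1 boundary peak in every H1975 sample, none in the HCC44 DMSO samples, and 2 and 0 in the HCC44 ACBI1 samples. In the HCC44 DMSO samples a wide peak began just outside the CHD3 window, so the absence there is one of position.

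SMARCB1, DPF1 and ACTL6B had no boundary peak in any sample. SMARCB1 encodes a core subunit that contacts the nucleosome, DPF1 a histone-reading subunit and ACTL6B an actin-related subunit, and the latter 2 proteins are known from neurons. Around SMARCB1 no list held any peak from position 23763159 to 24042527 of chromosome 22, a stretch of 279367 bp with 10 protein-coding genes inside, so its zeros cannot be read as a closed gene. DPF1 and ACTL6B lay in shorter stretches without peaks, of 8936 bp around the DPF1 start and 38970 bp around ACTL6B. In HCC44 both ACBI1 samples had 1 boundary peak at PHF10 and at DPF3 and both DMSO samples had 2, while ACTB and CHD4 had 2 with ACBI1 and 1 with DMSO. The share of all genes whose boundary counts separated in this way is not given here. In the HCC44 DMSO lists a peak of 2840 and 2666 bp overlapped the 300 bases around the annotated CHD4 start. No HCC44 ACBI1 peak overlapped these bases, so the higher CHD4 count is not wider cover there.

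The RefSeq promoter table (GRCh38.p14) held 51 annotated starts of 34 members, each as 300 bases from 250 before to 50 after the start. A start is called covered when a peak overlaps any of these 300 bases, whether or not it reaches the start base. By this measure 33 starts were covered in all 8 lists, 7 in some lists and 11 in none. Over all 22199 starts in that table, 47.9% were covered in all 8 lists and 39.1% in none. Member starts covered in every list had a median of 35 CG dinucleotides, and those covered in none had a median of 5, with a range of 1 to 43. Over all starts the medians were 28 and 6. The GC box, searched as GGGCGG on both strands, was in 30 of the 33 member starts covered in every list and in 5 of the 11 covered in none. It was in 56.3% of all starts, in 76.4% of those covered in every list and in 31.6% of those covered in none. A match to these letters is a description and not a site.

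**Figure D1:**
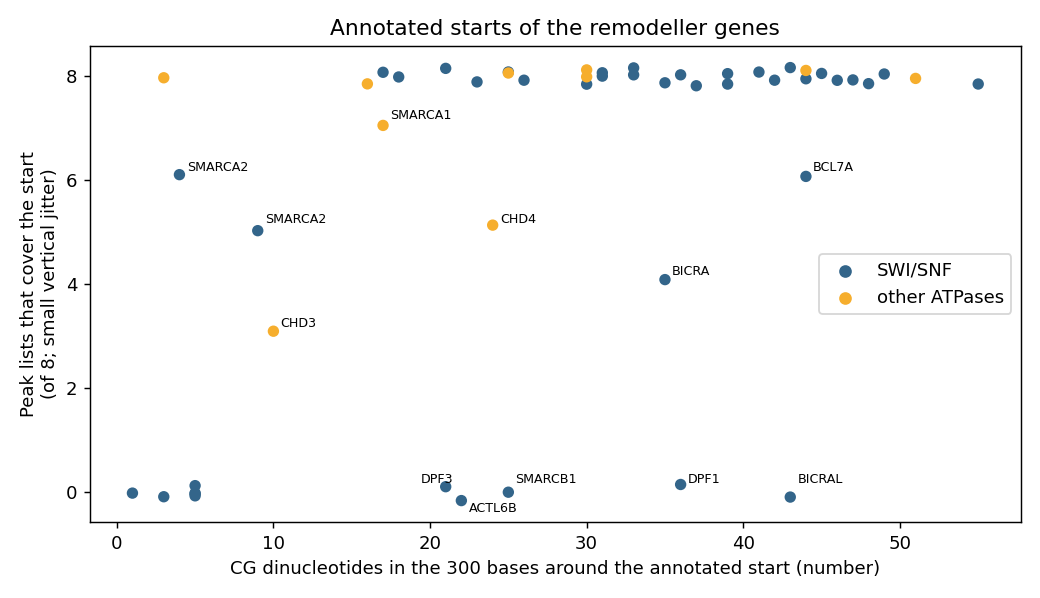
Each point is 1 of 51 annotated starts of 34 remodeller genes (blue for SWI/SNF, yellow for other ATPases). The x axis gives the number of CG dinucleotides in its 300 bases. The y axis gives the number of the 8 peak lists with a peak that overlaps these bases. The 33 starts covered in every list have a median of 35 CG dinucleotides, and the 11 covered in none spread from 1 to 43.

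The promoters of the 3 ACBI1 targets are shown because these genes were the ones whose products the compound acts on. Their first starts were covered in all 8 lists, at chr19:10960780-10961079 (plus strand) for SMARCA4, chr9:2015097-2015396 (plus strand) for SMARCA2 and chr3:52685864-52686163 (minus strand) for PBRM1. Capitals mark the GC box (GGGCGG) and the CCAAT box (CCAAT), each on either strand and with overlapping matches kept. The CCAAT box was in 34.7% of all starts.

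SMARCA4 first start: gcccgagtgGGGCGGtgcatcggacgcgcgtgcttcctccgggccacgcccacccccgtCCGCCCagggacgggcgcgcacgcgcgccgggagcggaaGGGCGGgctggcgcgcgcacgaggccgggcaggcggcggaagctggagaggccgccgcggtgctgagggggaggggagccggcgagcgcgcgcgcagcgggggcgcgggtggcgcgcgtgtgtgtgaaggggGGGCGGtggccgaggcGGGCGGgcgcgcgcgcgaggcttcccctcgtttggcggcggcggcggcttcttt

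SMARCA2 first start: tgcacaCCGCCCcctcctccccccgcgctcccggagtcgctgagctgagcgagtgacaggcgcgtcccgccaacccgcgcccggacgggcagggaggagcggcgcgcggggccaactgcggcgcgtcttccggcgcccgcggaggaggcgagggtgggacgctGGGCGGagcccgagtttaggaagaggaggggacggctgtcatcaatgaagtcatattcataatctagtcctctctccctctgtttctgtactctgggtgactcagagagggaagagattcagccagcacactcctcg

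PBRM1 first start: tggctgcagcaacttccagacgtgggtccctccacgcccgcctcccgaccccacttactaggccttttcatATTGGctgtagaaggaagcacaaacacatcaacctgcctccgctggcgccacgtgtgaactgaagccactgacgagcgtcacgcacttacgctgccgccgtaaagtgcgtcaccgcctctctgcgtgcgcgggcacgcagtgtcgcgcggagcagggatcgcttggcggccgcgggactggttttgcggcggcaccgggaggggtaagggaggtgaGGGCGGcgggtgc

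The SMARCA4 window held 55 CG dinucleotides, the highest number of any member start, and 5 GC boxes, and the SMARCA2 and PBRM1 windows held 30 and 31. The peak over the SMARCA4 start was 1414 and 1384 bp wide in the H1975 DMSO samples and 1285 and 1061 bp in the ACBI1 samples. In HCC44 the widths were 1374 and 1752 bp against 904 and 1073 bp. In both lines the ACBI1 peaks over this start were narrower than both DMSO peaks, and the authors' fold enrichment there overlapped between the treatments, at 4.64 and 4.84 with DMSO and 4.21 and 5.24 with ACBI1 in HCC44. Over the SMARCA2 start the peak was 2747 to 3195 bp wide in 7 lists. The list of H1975 ACBI1 replicate 2 held 2 separate peaks there, of which the one over the start was 540 bp wide. The PBRM1 start peak was 670 to 944 bp wide across the 8 lists.

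Some of the starts that differed between lists are shown next, with those of DPF1 and ACTL6B. Not shown is the CHD3 start, covered in 3 DMSO lists and no ACBI1 list. The CHD4 start, also not shown, was covered in all 4 DMSO lists and in H1975 ACBI1 replicate 1. The BCL7A and SMARCA1 starts were covered in 6 and 7 lists. SMARCA2 has internal starts 142315 and 143117 bp downstream of its first one in the table, and these were covered in 6 and 5 lists. The second BICRA start lies 938 bp inside the gene at chr19:47608884-47609183 (plus strand), and a peak covered it in all 4 DMSO lists and in no ACBI1 list. The DPF1 and ACTL6B starts were covered in none, though they have 36 and 22 CG dinucleotides.

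SMARCA2 internal start: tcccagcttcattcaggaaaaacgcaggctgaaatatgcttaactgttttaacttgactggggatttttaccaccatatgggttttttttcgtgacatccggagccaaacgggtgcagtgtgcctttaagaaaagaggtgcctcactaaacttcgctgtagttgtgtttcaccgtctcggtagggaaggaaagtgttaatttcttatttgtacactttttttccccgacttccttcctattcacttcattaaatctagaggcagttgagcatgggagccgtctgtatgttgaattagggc

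BICRA second start: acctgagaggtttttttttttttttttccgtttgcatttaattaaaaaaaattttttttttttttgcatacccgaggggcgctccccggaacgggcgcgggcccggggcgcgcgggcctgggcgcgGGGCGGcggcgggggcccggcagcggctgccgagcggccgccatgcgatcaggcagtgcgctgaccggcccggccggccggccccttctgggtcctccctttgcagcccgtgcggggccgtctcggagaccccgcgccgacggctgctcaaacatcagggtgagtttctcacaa

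DPF1 start: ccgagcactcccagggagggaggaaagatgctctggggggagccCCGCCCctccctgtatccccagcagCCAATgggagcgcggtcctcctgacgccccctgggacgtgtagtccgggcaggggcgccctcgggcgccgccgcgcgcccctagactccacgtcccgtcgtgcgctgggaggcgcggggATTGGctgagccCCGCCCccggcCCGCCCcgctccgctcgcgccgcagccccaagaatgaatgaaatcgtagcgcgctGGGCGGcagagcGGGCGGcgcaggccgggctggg

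ACTL6B start: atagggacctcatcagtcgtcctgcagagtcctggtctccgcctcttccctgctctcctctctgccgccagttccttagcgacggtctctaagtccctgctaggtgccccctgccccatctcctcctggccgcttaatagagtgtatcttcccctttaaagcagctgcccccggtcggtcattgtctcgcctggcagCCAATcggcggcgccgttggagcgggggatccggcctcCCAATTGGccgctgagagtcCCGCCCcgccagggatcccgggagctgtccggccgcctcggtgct

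The SMARCA2 internal window, chr9:2158214-2158513, held 9 CG dinucleotides and no GC box, unlike the window of the first start with 30 and 2. At BICRA, a scaffold of non-canonical BAF, the first start was covered in all 8 lists and the peak over it ended before the second start with ACBI1. That peak was 1288 and 1283 bp wide in the H1975 DMSO samples and 816 and 789 bp in the ACBI1 samples. In HCC44 the widths were 2274 and 2243 bp against 741 and 721 bp. The authors' fold enrichment of the BICRA peak was higher with ACBI1 in both lines, at 9.55 and 10.1 against 7.87 and 7.94 in H1975 and 6.36 and 4.95 against 4.16 and 4.48 in HCC44. A narrower peak with a higher mean fold is what both ACBI1 samples of each line showed at this gene. The DPF1 window, chr19:38229646-38229945 (minus strand), held 5 GC boxes and 2 CCAAT boxes. The ACTL6B window, chr7:100656399-100656698 (minus strand), held 3 CCAAT boxes, 2 of them overlapping on opposite strands.

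Peaks away from the gene's own ends were fewer with ACBI1 around 18 of the 40 members in H1975 and around 23 in HCC44. A gene is called lower here when both ACBI1 samples of a line had fewer peaks elsewhere than both of its DMSO samples. In H1975 the 18 lower members were 14 of 29 SWI/SNF genes and 4 of 11 other ATPases, beside 50.6% of the 16997 protein-coding genes with any such peak. In HCC44 the 23 were 17 of SWI/SNF and 6 other ATPases, beside 62.7% of 17347 genes. In both lines 15 members were lower, beside 37.5% of the 17894 genes with any such peak in either line. They were 12 of SWI/SNF (SMARCA4, SMARCC1, SMARCD1, ARID1A, ARID1B, PBRM1, BRD7, DPF1, DPF2, DPF3, BCL7A and BICRAL) and 3 other ATPases (CHD1, CHD2 and CHD7). Over all 20037 genes, with or without such a peak, 42.9% were lower in H1975 and 54.3% in HCC44, beside 45% and 57.5% of the 40 members. The members' shares lie near these backgrounds, so the counts are not particular to remodeller genes. Genes with a mean of at least 4 peaks elsewhere over a line's samples included 24 members in H1975, of which 15 were lower (56.4% of such genes) and 0 higher (1.72%), and 28 in HCC44, of which 18 were lower (70.8%). With 100 kb on either side, 8 other ATPases were lower in H1975 (62.3% of all genes). One member was higher in each line, SMARCD2 in H1975 (1.62% of all genes) and ACTL6B in HCC44 (2.13% of all genes).

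With treatments permuted within each line there are 36 arrangements, and the exact two-sided permutation test cannot go below p = 0.0556. All 15 members that were lower in both lines reached that smallest p, as did 37.7% of the 17894 genes tested, and the smallest p adjusted by Benjamini-Hochberg over all of these was 0.147. No member therefore passed a threshold of 0.05, and the values below are descriptions of 2 samples against 2.

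**Figure D2:**
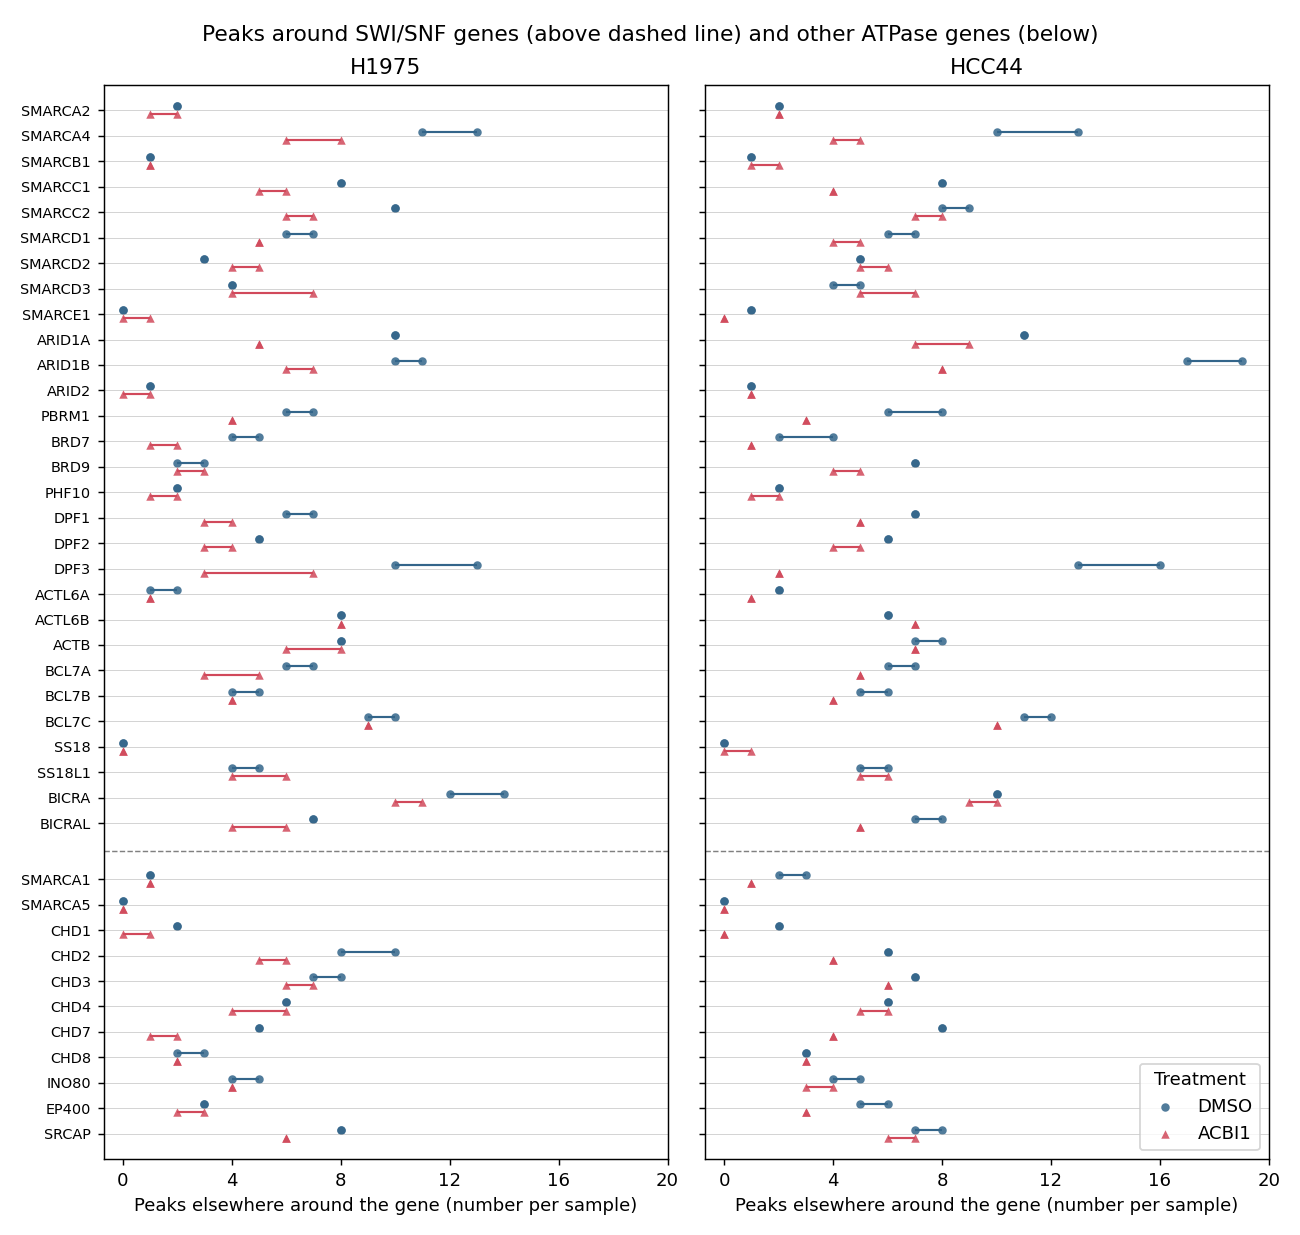
Number of peaks elsewhere around each of the 40 genes (x axis) in each sample, with the 29 SWI/SNF genes above the dashed line and the 11 other ATPases below; circles are DMSO and triangles ACBI1 samples, and each line joins the 2 replicates of a group. DPF3 and ARID1B show the widest gaps, in HCC44 from 16 and 13 to 2 and 2 and from 17 and 19 to 8 and 8 peaks.

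Among the catalytic subunits, SMARCA4 (chr19:10961030-11062273) had 11 and 13 peaks elsewhere in the H1975 DMSO samples and 8 and 6 in the ACBI1 samples, means of 12 ± 1.41 and 7 ± 1.41 (SD, n = 2). In HCC44 the counts were 13 and 10 against 5 and 4, means of 11.5 ± 2.12 and 4.5 ± 0.707 (SD, n = 2). The groups did not overlap in either line. Upstream of the gene, 3 regions had a peak in all 4 DMSO lists and in no ACBI1 list. They lay at chr19:10939467-10939986, chr19:10947243-10948556 and chr19:10954039-10954514, and end 21044, 12474 and 6516 bp before the gene. Their mean rank by −log10 q in the DMSO lists was at percentile 12.7, 12.2 and 39.1. The first 2 were thus weak peaks already with DMSO. The peak inside the gene body at chr19:11035296-11036198 was in all 8 lists, as was the peak at the neighbouring ends of YIPF2 and TIMM29. The fold enrichment of the body peak overlapped in H1975, at 7.16 and 6.46 against 6.56 and 5.88, and was lower with ACBI1 in HCC44, at 7.10 and 6.86 against 5.34 and 4.97. Peaks were thus missing in the flanks of SMARCA4, and at its start and body peak one was listed in every sample. SMARCA2 (chr9:2015347-2193620), the paralogous ATPase, lies in a sparse stretch and had 2 peaks elsewhere in every sample except H1975 ACBI1 replicate 2, which had 1. The SMARCA2 peak missing there, chr9:2157471-2158508, is the one over the internal starts.

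PBRM1 (chr3:52545367-52685913) encodes the PBAF subunit with many bromodomains and is the third target. It had 6 and 7 peaks elsewhere in the H1975 DMSO samples and 4 and 4 with ACBI1. In HCC44 the counts were 8 and 6 against 3 and 3, so neither line's groups overlapped. Its body peak at chr3:52670638-52671525 was in all 8 lists, and the region chr3:52507315-52507792, inside STAB1 beyond the far end of PBRM1, had a peak in all 4 DMSO lists and no ACBI1 list. Peaks at the ends of UQCC5 and of GLT8D1 and SPCS1, on either side of PBRM1, were in all 8 lists. The other PBAF genes were sparse: ARID2 and PHF10 had 0 to 2 peaks elsewhere in every sample. BRD7, a bromodomain subunit of PBAF, had 5 and 4 peaks against 2 and 1 in H1975, and 4 and 2 against 1 and 1 in HCC44 (DMSO before ACBI1, as in all such pairs below).

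**Figure D3:**
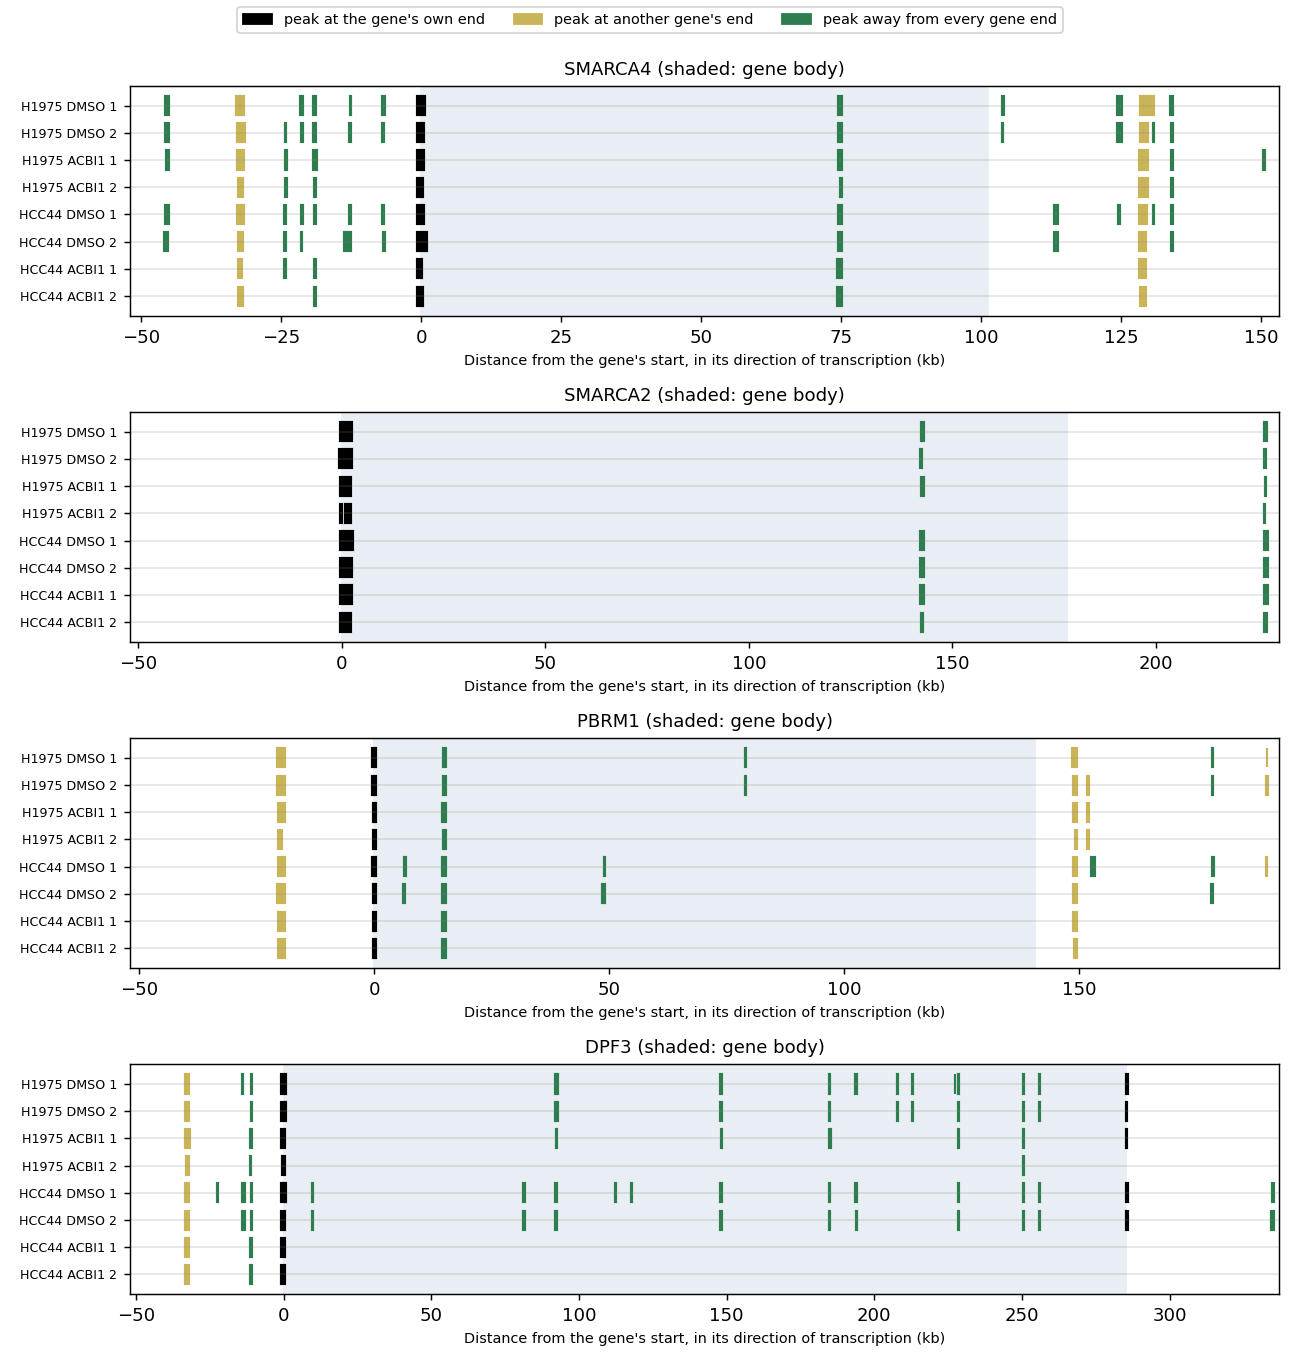
Peaks in each of the 8 samples (rows) around SMARCA4, SMARCA2, PBRM1 and DPF3, plotted by distance from the gene start in kb along its direction of transcription, with the gene body shaded and outlines that widen the narrowest peaks slightly; black marks peaks at the gene's own ends, yellow those at another gene's end and green those at no gene end. Black peaks at the gene starts and most yellow peaks recur in all rows, the black peak at the far end of DPF3 is missing in 3 ACBI1 rows, and the 3 green SMARCA4 peaks seen in all 4 DMSO rows and no ACBI1 row lie 6516 to 21044 bp upstream.

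The core subunits differed in how many peaks surrounded them. SMARCC1 (chr3:47585269-47781893), a scaffold on which SWI/SNF assembles, had 8 peaks elsewhere in all 4 DMSO samples, 6 and 5 in the H1975 ACBI1 samples and 4 and 4 in the HCC44 ACBI1 samples. Inside its gene body the DMSO samples had 4 each, the H1975 ACBI1 samples 2 and 1, and the HCC44 ACBI1 samples 0 and 0. Its partner SMARCC2 was lower in H1975, at 10 and 10 against 6 and 7, and overlapped in HCC44, at 9 and 8 against 7 and 8. Of the SMARCD scaffold genes, SMARCD1 was lower in both lines, at 6 and 7 against 5 and 5 and at 6 and 7 against 5 and 4. SMARCD2 (chr17:63832081-63842685) went the other way in H1975, with 3 and 3 peaks against 5 and 4, and had 5 and 5 against 6 and 5 in HCC44. In H1975 ACBI1 replicate 2 this call rested on the peak in chr17:63866180-63866904. Its −log10 q of 10.3 was near the lowest of that list, 10.1. SMARCD3 overlapped in both lines. The difference between the lines was not tested for any of these genes.

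Canonical BAF is marked by an ARID1 subunit. ARID1A (chr1:26696015-26782104), the SWI/SNF gene most often mutated in cancer, had 10 and 10 peaks elsewhere against 5 and 5 in H1975, and 11 and 11 against 9 and 7 in HCC44. The replicates of ARID1A were close, and the groups stood apart in both lines. ARID1B (chr6:156776026-157210779), its paralog, had 11 and 10 against 7 and 6 in H1975 and 17 and 19 against 8 and 8 in HCC44. Within its long gene body ARID1B had 13 and 14 peaks in the HCC44 DMSO samples and 6 and 6 with ACBI1. The 10 fewer peaks in the mean in HCC44 placed ARID1B second among the members after DPF3.

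DPF3 (chr14:72609034-72894101), a histone-reading subunit of canonical BAF known from heart and muscle, had the largest differences of the 40 genes. It had 13 and 10 peaks elsewhere in the H1975 DMSO samples and 7 and 3 in the ACBI1 samples, means of 11.5 ± 2.12 and 5 ± 2.83 (SD, n = 2). In HCC44 the counts were 16 and 13 against 2 and 2, means of 14.5 ± 2.12 and 2 ± 0 (SD, n = 2). Its gene body carried most of these: 10 and 8 peaks against 5 and 1 in H1975, and 11 and 9 against 0 and 0 in HCC44. The bases covered by all its peaks elsewhere went from 6672 and 5174 to 3827 and 1853 in H1975, and from 8669 and 7358 to 1942 and 1933 in HCC44. The HCC44 ACBI1 lists thus held no peak inside the 285068 bp of DPF3 apart from its start. The start itself, the end of neighbouring DCAF4 and the upstream region chr14:72904858-72905382 had a peak in all 8 lists. At the far end of DPF3 the DMSO lists and H1975 ACBI1 replicate 1 had a boundary peak and the other ACBI1 lists did not.

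Its relatives had smaller differences. DPF1 (chr19:38211006-38229695) had 6 and 7 peaks elsewhere against 4 and 3 in H1975 and 7 and 7 against 5 and 5 in HCC44. DPF2, the ubiquitous member of this family, had 5 and 5 against 3 and 4, and 6 and 6 against 4 and 5. Among the accessory subunits, BCL7A was lower in both lines, at 7 and 6 against 5 and 3 and at 6 and 7 against 5 and 5 (with 25 kb on either side its HCC44 mean was higher by 1), and BICRAL was too, at 7 and 7 against 6 and 4 and at 8 and 7 against 5 and 5. BCL7B, BCL7C, BRD9, ACTL6A and SMARCE1 were lower in HCC44 only, and BICRA was lower in H1975 only, beside SMARCC2. ACTL6B (chr7:100643097-100656448) had 8 peaks elsewhere in every H1975 sample, and in HCC44 6 and 6 against 7 and 7, which turned to a mean change of -2 when only peaks of at least 5-fold enrichment were counted. The remaining SWI/SNF genes, SMARCA2, SMARCB1, SMARCD3, ARID2, PHF10, ACTB, SS18 and SS18L1, overlapped between treatments in both lines.

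Of the other ATPases, CHD7 (chr8:60678740-60868028), known for its mutation in CHARGE syndrome, had the largest difference. It had 5 and 5 peaks elsewhere against 1 and 2 in H1975, and 8 and 8 against 4 and 4 in HCC44. In its gene body the counts were 3 and 3 against 0 and 0 in H1975 and 4 and 4 against 2 and 2 in HCC44. CHD2 (chr15:92900324-93027996), linked to epilepsy, had 10 and 8 against 6 and 5 in H1975 and 6 and 6 against 4 and 4 in HCC44. CHD1, which binds a histone mark of active promoters, had 2 in every DMSO sample, and its ACBI1 samples had 1 and 0 in H1975 and none in HCC44. EP400, the ATPase of the TIP60 complex, overlapped in H1975, at 3 and 3 against 3 and 2, and was lower in HCC44, at 6 and 5 against 3 and 3. SRCAP, which loads H2A.Z, was lower in H1975 only, at 8 and 8 against 6 and 6. SMARCA1 and CHD3 were lower in HCC44 only, at 2 and 3 against 1 and 1 and at 7 and 7 against 6 and 6. CHD4, CHD8 and INO80 overlapped in both lines, and SMARCA5, the main ISWI ATPase, had no peak elsewhere in any sample, though its start was covered.

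SWI/SNF genes and the other ATPases were then compared as sets, with each peak counted once. SWI/SNF genes had 169 and 169 peaks elsewhere in the H1975 DMSO samples and 136 and 112 with ACBI1. In HCC44 the sums were 192 and 181 against 130 and 127. The other ATPases had 50 and 47 against 36 and 33 in H1975 and 53 and 51 against 37 and 36 in HCC44. On the log2 scale of the sums, SWI/SNF differed by -0.45 (SD between replicates 0.14) in H1975 and by -0.54 (SD 0.046) in HCC44. The other ATPases differed by -0.49 (SD 0.077) and -0.51 (SD 0.034). The sets differed by less than the spread between replicates: SWI/SNF minus other ATPases came to 0.045 (combined SD 0.16) in H1975 and -0.027 (combined SD 0.057) in HCC44. Peaks elsewhere around all protein-coding genes differed by more, -0.73 (SD 0.17) and -0.93 (SD 0.042). The median gene kept 71.4% and 73.9% of its peaks among SWI/SNF genes, 81.7% and 72.2% among the other ATPases, and 67.9% and 61.5% among all genes, in H1975 and HCC44. BCL7C and SRCAP are neighbours, and their 50 kb windows share peaks.

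In the deposited lists, peaks at another gene's end changed little in number, and peaks away from every gene end were fewer with ACBI1. Peaks elsewhere that lay within 1 kb of an end of some other protein-coding gene numbered 48 and 48 around SWI/SNF genes in the H1975 DMSO samples and 48 and 46 with ACBI1, and 46 and 47 against 46 and 49 in HCC44. Peaks away from every gene end numbered 121 and 121 against 88 and 66 in H1975. In HCC44 they numbered 146 and 134 against 84 and 78. This class can hold enhancers, and it also holds annotated starts inside genes, such as that of CHD8. Around the other ATPases the peaks away from every gene end numbered 30 and 27 against 15 and 13, and 32 and 30 against 16 and 15. Those at another gene's end numbered 20 or 21 in every sample. On the log2 scale the peaks away from gene ends differed by -0.65 (SD 0.21) and -0.79 (SD 0.082) for SWI/SNF, by -1.03 (SD 0.13) and -1 (SD 0.066) for the other ATPases, and by -1.04 (SD 0.25) and -1.26 (SD 0.061) for all genes. SWI/SNF minus other ATPases here was 0.37 (combined SD 0.24) in H1975 and 0.21 (combined SD 0.10) in HCC44. The HCC44 difference turned to -0.12 when only peaks with −log10 q of at least 20 were counted. By gene, 18 members were lower in H1975 for peaks away from every gene end (53.3% of all genes) and 23 in HCC44 (62.8%). For peaks at another gene's end, 0 members were lower in H1975 (7.44% of all genes) and 2 in HCC44 (15.7%), SMARCD1 and CHD4, and PHF10 and CHD8 were higher in HCC44 (2.4%), while 0 were higher in H1975 (2.38%). For peaks away from every gene end, 1 member was higher in H1975, SMARCD2 (1.52%), and 0 in HCC44 (2.34%). The SMARCD2 call rested in ACBI1 replicate 2 on a peak near the lowest −log10 q of its list.

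**Figure D4:**
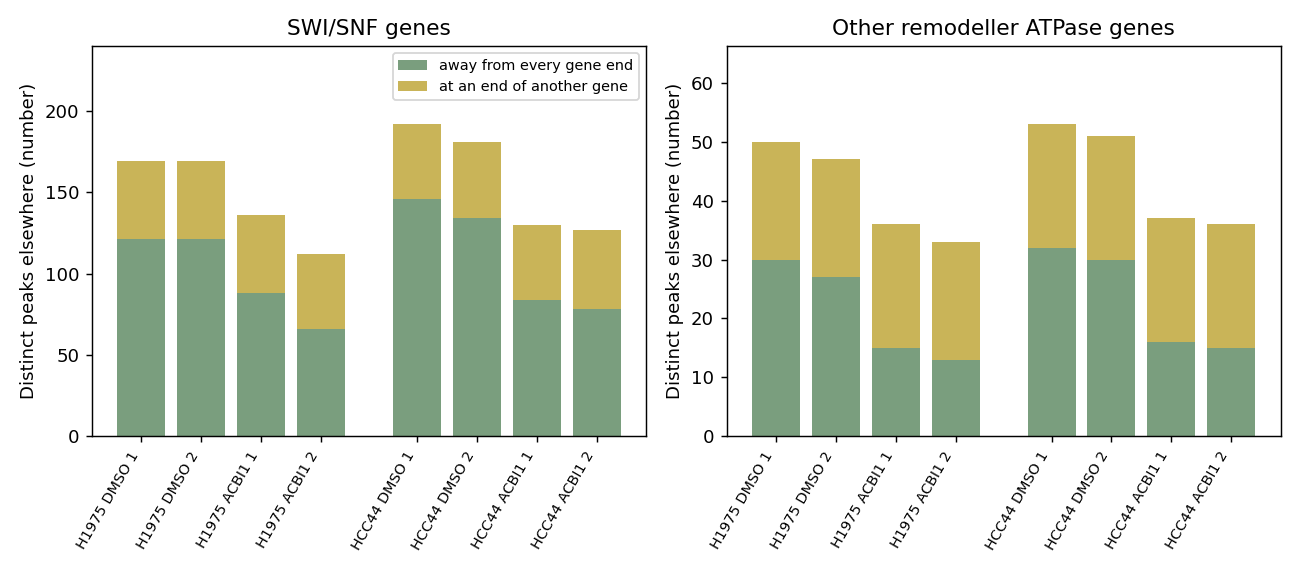
Distinct peaks elsewhere around the 29 SWI/SNF genes (left) and the 11 other ATPase genes (right) in each of the 8 samples, split into peaks at an end of another gene (yellow) and peaks away from every gene end (green). The yellow part stays at 46 to 49 and at 20 or 21 peaks, and the green part is shorter in all ACBI1 samples.

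The same peaks were followed one by one. Overlapping peaks were merged into regions, and a region found in each DMSO list of a line and in neither ACBI1 list is called lost. In H1975, 36 of 153 regions elsewhere around SWI/SNF genes were lost (23.5%) and 12 of 44 around the other ATPases (27.3%), beside 36.5% around all genes. In HCC44, 59 of 171 were lost around SWI/SNF genes (34.5%) and 15 of 49 around the other ATPases (30.6%), beside 48.3%. With lists of equal length the H1975 shares were 13.2% and 10.3% and the HCC44 share of the other ATPases was 16.7%, and among peaks of at least 5-fold enrichment the HCC44 shares were 55.4% and 57.1%. Away from every gene end the lost shares were 32.1% and 46.0% for SWI/SNF, 50% and 48.3% for the other ATPases, and 48.2% and 60.7% for all genes, in H1975 and HCC44. At another gene's end they were 4.26% and 2.22% for SWI/SNF and 4.48% and 9.26% for all genes. Away from every gene end, 49.1% and 47.6% of the SWI/SNF regions had a peak in both ACBI1 samples, in H1975 and HCC44. The lost regions away from gene ends around SWI/SNF genes were narrower, with a median width of 411 bp in H1975 against 824.5 bp for the regions with a peak in both ACBI1 samples, and 581.5 against 889 bp in HCC44. Over all genes the medians for lost regions were 389 bp (H1975) and 594 bp (HCC44), against 778 and 928 bp, so lost regions were narrower genome-wide as well. A lost region merges peaks of the DMSO lists alone, and a kept one merges peaks of all lists of the line. Part of the difference in width may therefore come from the merging.

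**Figure D5:**
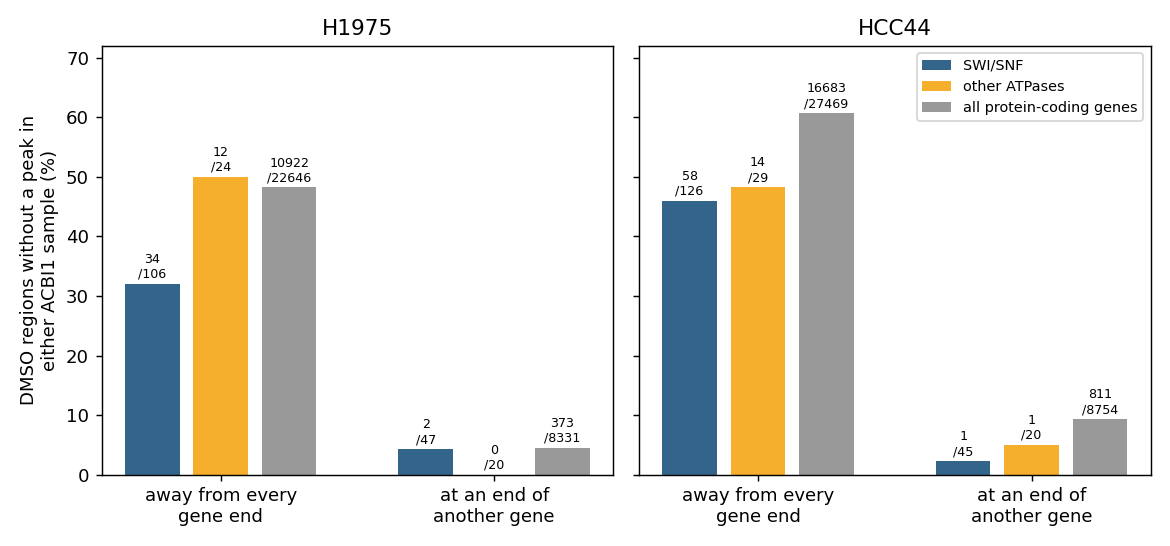
Share of DMSO regions (a peak in both replicates) that have none in either ACBI1 sample (y axis, percent), for regions away from every gene end and regions at an end of another gene, in H1975 (left) and HCC44 (right); labels give lost regions over all such regions. Away from gene ends the SWI/SNF bars reach 32.1% and 46.0%, and at another gene's end every bar is below 10%.

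Across all 8 lists, 16 of 179 regions away from gene ends around SWI/SNF genes and 5 of 45 around the other ATPases were in all 4 DMSO lists and no ACBI1 list, 8.94% and 11.1%, beside 12.6% of the 55968 such regions in the whole lists. The 6 of these with the highest rank of −log10 q in the DMSO lists are named here. The CHD7 region chr8:60807474-60808110, inside the gene body, ranked highest, with the authors' fold enrichment at 13.0 and 13.7 in the H1975 DMSO lists and 7.28 and 6.84 in the HCC44 ones. The DPF2 region chr11:65371008-65371659 lay 16746 bp beyond the gene, inside FRMD8, at 7.65 in H1975 DMSO replicate 1 and at 5.41 and 5.16 in the HCC44 DMSO lists. The DPF3 region chr14:72638030-72638376, in the gene body, had 8.87 and 8.33 in H1975 and 7.05 and 6.74 in HCC44. These 3 regions thus held strong peaks in both lines with DMSO and no listed peak with ACBI1. An ARID1B region at chr6:156729231-156729613 lay 46413 bp from the gene, a CHD1 region at chr5:98880220-98880952 in the gene body, and a BICRAL region at chr6:42702017-42702611 lay 43728 bp from the gene, inside PRPH2. By gene, SMARCA4 had 3 regions lost in both lines, and ARID1B, SMARCC1 and CHD7 had 2 each. Of the SMARCA4 regions, those at chr19:10939467-10939986 and chr19:10947243-10948556 ranked low in the DMSO lists.

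The opposite pattern was rare. Regions with a peak in all 4 ACBI1 lists and no DMSO list numbered 3 of 179 around SWI/SNF genes (1.68%) and 0 of 45 around the other ATPases, beside 0.159% of the 55968 regions in the whole lists. They were chr20:62156463-62157322 in the body of SS18L1, the paralog of the SS18 subunit, chr11:65366334-65366696 at 12072 bp from DPF2, and chr7:73606942-73607581 inside MLXIPL at 49252 bp from BCL7B. The SS18L1 region had a fold enrichment of 2.80 and 3.40 in H1975 and of 4.22 and 3.37 in HCC44 with ACBI1. At DPF2 it was 5.97 and 5.92, and 5.73 and 5.44. DPF2 thus had, in the same flank, 1 region seen in all 4 DMSO lists only and 1 seen in all 4 ACBI1 lists only. With 3 regions no test of this share was made.

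List length bears on all counts elsewhere, so the lists were also cut to the same number of peaks, the 22115 with the highest −log10 q in each. The direction of the sums then turned: SWI/SNF differed by 0.17 in H1975 and 0.21 in HCC44 on the log2 scale, and the other ATPases by 0 and 0.25. Under this cut 3 members were lower in H1975 (15.2% of all genes) and 8 in HCC44 (17.2%), and 10 and 16 were higher (27.6% and 34%). DPF3 was the only member lower in both lines, with 8 and 7 peaks against 4 and 3 in H1975 and 5 and 5 against 2 and 2 in HCC44. The share of all genes lower in both lines under this cut is not given here. BRD7 and SRCAP were lower in H1975. ARID1A, ARID1B, PBRM1, BRD9, ACTL6A, CHD1 and CHD7 were lower in HCC44, of which ARID1A and BRD9 were higher in H1975, at 4 and 4 against 5 and 5 and at 1 and 1 against 2 and 2. SMARCA4 no longer stood apart, with 6 and 6 against 7 and 6 in H1975 and 4 and 3 against 5 and 4 in HCC44. The lower counts of most members thus hold for the lists as deposited and not for lists of equal length.

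Without ACBI1, the lines differed in which members had many peaks elsewhere. Both HCC44 DMSO samples exceeded both H1975 DMSO samples at 10 members, 7 of SWI/SNF (SMARCD2, SMARCE1, ARID1A, ARID1B, BRD9, DPF2 and BCL7C) and SMARCA1, CHD7 and EP400, beside 36.2% of all genes. The reverse held at 4 members, SMARCC2, ACTL6B, BICRA and CHD2, beside 17.1%. ARID1B, at 17 and 19 against 11 and 10, and BRD9, at 7 and 7 against 2 and 3, were the furthest apart. BRD9 encodes the bromodomain subunit of non-canonical BAF.

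The partner subunits and further ATPases of the other remodeller families, 54 genes listed from textbook knowledge, were counted in the same way. Of these 22 were lower in H1975 and 37 in HCC44, 19 of them in both lines, beside 50.6%, 62.7% and 37.5% of all genes with such peaks. In either line 0 were higher, beside 1.62% and 2.13%. With lists of equal length 6 and 7 were lower, beside 15.2% and 17.2% of all genes, and 13 and 20 were higher, beside 27.6% and 34%. CHD6, an ATPase related to CHD7, had 2 in every DMSO sample and 0 in every ACBI1 sample. INO80C, a subunit of the INO80 complex, had 2 and 2 against 1 and 1 in H1975 and 4 and 4 against 0 and 0 in HCC44. HDAC2, the deacetylase of NuRD, had 2 and 2 against 1 and 0, and 3 and 3 against 0 and 1.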

How the data were processed

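ATAC-seq peak lists of 8 samples were used, called separately for each sample. Per the submitters' processing notes, BWA and hg38 were used; the peak caller was not given in the sources used here. The authors deposited for each peak a fold enrichment, used as a ratio to filter and describe peaks, and a −log10 p-value and −log10 q-value, of which −log10 q was used to rank peaks. The authors' score column was not used. The lowest deposited −log10 q was 10.04 to 10.21 across the lists. Gene positions, starts and promoter sequences came from RefSeq (GRCh38.p14); ACTB, CHD7, ACTL6A, SMARCC1, SMARCC2 and ARID2 were not matched in the promoter table.

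Peaks were assigned to genes, merged at an overlap of 1 bp and counted with Python 3.11.15, numpy and pandas, and the counting was tested on simulated data. Log2 changes are of mean numbers of peaks. The members and lists were chosen with earlier results of these data known. Per-sample values were given for the 3 targets, the 8 SWI/SNF genes and 4 other ATPases with the largest mean difference, members higher with ACBI1 and members with an incomplete or absent boundary peak; others were named after their values were seen. Alternatives were minimum −log10 q and fold, equal numbers of peaks, joining of close peaks, window sizes, a stricter background and leaving out each replicate. Values of 1 marker gene and 1 neighbouring gene are not reported here.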

Additional observations from a re-analysis of the deposited data

How the results depend on the processing

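Cutting every list to the same number of peaks turned the direction of most set changes. The log2 change of peaks elsewhere became 0.17 (H1975) and 0.21 (HCC44) for SWI/SNF and 0 and 0.25 for the other ATPases; away from gene ends it became 0.14 and 0.15 for SWI/SNF and 0.13 in HCC44 for the other ATPases. Members lower were 3 (2 SWI/SNF, 1 other ATPase) in H1975 and 8 (6 and 2) in HCC44, and the lost shares became 12.6% and 24.1% over all members, 13.2% and 26.1% for SWI/SNF and 10.3% and 16.7% for the other ATPases. Mean changes turned positive in H1975 for SMARCA4 (0.5), ARID1A (1), SMARCC1 (1), DPF1 (1.5) and CHD2 (0.5), and in HCC44 for SMARCA4 (1), DPF1 (0.5), CHD2 (1.5), EP400 (0.5), BCL7A (3.5) and CHD3 (1).

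With a minimum fold of 5, the log2 change was -0.65 for the other ATPases in H1975, and -1.44 and -1.56 for SWI/SNF and the other ATPases in HCC44, with a difference of 0.11; ACTL6B changed by -2, members that kept a boundary peak numbered 5, and lost shares were 56.3% over all members, 55.4% and 57.1% by set. With a minimum −log10 q of 20, SWI/SNF in HCC44 was at -0.66, and SWI/SNF minus other ATPases at -0.15 elsewhere and -0.12 away from gene ends. With 5 kb windows the HCC44 changes were -0.60 and -0.58. With 100 kb on either side SWI/SNF in HCC44 was at -0.46, and 8 other ATPases were lower in H1975; with 25 kb the other ATPases in H1975 were at -0.67 and BCL7A in HCC44 changed by 1. Against genes with a mean of at least 4 peaks, 2 other ATPases counted as lower in H1975. Causes of these shifts were not tested. A value was called close to the main one by a rule for its kind. Counts had to lie within a ratio of 1.5 and lost shares within the confidence interval of the main share. Log2 values had to lie within the SD between replicates. A change of sign inside that SD still counted as close for SWI/SNF minus other ATPases. Of 170 values for the main comparisons under other settings, 138 were close, as were 77 of 80 with 1 replicate left out.

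Leaving out 1 replicate at a time kept the direction of the change in each set, while SWI/SNF minus other ATPases in H1975 ranged from -0.038 to 0.12; SWI/SNF in H1975 ranged from -0.59 to -0.31, and its lost share from 24.2% to 35.2% (25% to 35.1% over all members), the extremes on one side coming without H1975 ACBI1 replicate 1. With the replicate number as a block, 19 members were lower in both pairs in H1975 and 24 in HCC44. This paired rule is looser than the main one, and the share of all genes that meet it is not given here. Under the block SWI/SNF differed by -0.45 and -0.54 and the other ATPases by -0.49 and -0.51. Swapping treatments only within a line and number, chosen after seeing the data, allows 16 arrangements and an exact p of 0.125 at the lowest, which 17 members and 41.5% of genes reached. Same-numbered samples also share a title prefix (ASeq1 or ASeq2), which the labels do not explain, and their deviations correlated at 0.11 in H1975 and 0.040 in HCC44 over 17894 genes. Depth is unknown, so a missing peak sets no limit on accessibility.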
